A study of Homo sapiens and Mus musculus with 41 samples.

Results

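Keratins, the proteins of the intermediate filaments of epithelial cells, were followed through 4 models of leptomeningeal metastasis, the growth of tumour cells in the thin membranes and fluid around the brain. The members were all rows whose symbol is KRT followed by a number and at most 1 letter from A to C, read without regard to case, which leaves out keratin pseudogenes and keratin-associated proteins. This gave 55 of 23368 genes in each human table, 29 of type I and 26 of type II, and 51 of 23337 genes in the mouse table, 28 of type I and 23 of type II. In PC9, MDA-MB-231 and LLC most were silent or low. A value of at least 10 normalized counts in at least 2 libraries was reached by 36 keratins in HCC1954, 23 in PC9, 15 in MDA-MB-231 and 9 in LLC, and only these were tested.

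The series holds RNA from 41 cultures of tumour cells that all carry GFP, including the controls. HCC1954 is a human ductal breast carcinoma line labelled as having raised HER2, and MDA-MB-231 a human ductal breast carcinoma line labelled as lacking the oestrogen receptor, the progesterone receptor and HER2. PC9 is a human lung adenocarcinoma line labelled as having raised EGFR, and LLC, Lewis lung carcinoma, is a mouse lung carcinoma line that arose in a C57/B6 mouse. The groups are the parental line (Par), a derivative labelled intermediate (Int), the leptomeningeal derivative (Lep) and a brain metastatic derivative (BrM), read in that order from 3, 2, 3 and 2 libraries for HCC1954 and 3, 2, 3 and 3 for LLC. Both MDA-MB-231 and PC9 have 3 Par, 2 Int, 2 Lep and 3 BrM libraries. Derivatives were washed from the leptomeninges of mice, grown on plastic until only GFP-positive cells remained and kept in culture before RNA was taken, so all values describe cultured cells. The labels describe no separate origin for BrM. The series' design calls the Par replicates technical and the Int and Lep replicates partly biological and partly technical, and gives nothing on BrM. The p-values therefore measure the spread between these libraries and not between mice.

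As background, a keratin filament is built from pairs of 1 acidic type I and 1 basic type II protein, and each epithelium has its own pairs. KRT8 with KRT18, joined by KRT7 and KRT19, is the pair of simple epithelia such as the luminal cells of the breast and the lining of the airways. KRT5 with KRT14, joined by KRT15 and KRT17, marks the basal layer of stratified epithelia and the basal or myoepithelial cells of the breast, KRT6 with KRT16 and KRT17 appears in wounded or activated skin, and a further set of keratins builds the hair shaft. Filaments end at desmosomes, which join cells to each other, and at hemidesmosomes, which fix basal cells to the basement membrane.

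Values are normalized counts, that is reads of a gene divided by 1 scaling factor per library, and the libraries held 16792027 to 110830546 recovered reads. A gene was called, here also written as rose or fell, when limma's Benjamini-Hochberg adjusted p over all tested genes was below 0.05 and the log2 fold change, on log2(value + 1), was at least 1 in size. Fold changes carry their standard error and group means their SD. Replicates differed more in some groups than in others. MDA-MB-231 Par replicate 1 stood far from replicates 2 and 3, with a chi-square per degree of freedom of 313 and 431 against 68 between the latter, while pairs of HCC1954 Par libraries gave 1.5 to 1.82. HCC1954 Int (18.1), PC9 Lep (36.3), MDA-MB-231 Int (44.4), Lep (248) and BrM (9.97 to 96.9), and LLC Int (90.6) and Lep (54.9 to 96.5) also held unlike replicates. In LLC BrM, replicate 2 stood apart, at 58.9 and 78.4. Of the line markers, ERBB2, the gene of HER2, was listed at 57461 to 398639 in the HCC1954 libraries. The 4 line markers together differed by group there. They summed to 67400 to 69600 in Par, 158000 to 164000 in Int and Lep and 403000 to 407000 in BrM. In PC9, EGFR was listed at 9147, 9409.7 and 9752 in Par but at 1867 and 1595 in Int and 1527 and 1928 in Lep. Some markers of other cell types moved with the groups. In HCC1954 BrM the 5 endothelial markers, all tested, rose against Par and summed to 4940 to 4950, against 885 to 974 in Par and 639 to 806 in Int and Lep. In PC9 the 5 endothelial markers summed to 882 to 911 in Int and 844 to 1140 in Lep against 270 to 316 in Par and 267 to 286 in BrM, and both tested members, PECAM1 and CDH5, rose in Int and Lep. The 5 choroid plexus markers of PC9 summed to 232 to 332 in Int and Lep and 60.1 to 77 in Par, with both tested members higher, while TTR, which defines that tissue, was at 0 in every PC9 library. In LLC Int the same list summed to 531 to 742 against 117 to 153 in Par, with both tested members higher. Among 6 macrophage markers of LLC, Cd68 rose in Int to 5585 and 5159 from 225, 201 and 239 in Par, Cd14 was 391 and 382 and 464, 441 and 395, and Ptprc, which all white blood cells carry, was at most 3.84 in both groups. In HCC1954, the 6 meningeal fibroblast and pericyte markers summed to 3980 to 4250 in Lep and 2930 to 2960 in Par. They came to 2240 to 2780 in Int and 1400 to 1450 in BrM. The 6 macrophage markers there summed to 2900 to 2980 in Par and 2480 to 2770 in Lep. In Int they summed to 1060 to 1320 and in BrM to 1020 to 1050. In LLC the meningeal markers summed to 3200 to 3470 in Par and 1070 to 2020 in Lep. The part of these cell types in the keratin results was not tested, nor was the presence of mouse reads in the human tables.

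Keratin made up 0.707% to 1.23% of all normalized counts in HCC1954, 1.13% to 2.35% in PC9, 0.081% to 0.196% in MDA-MB-231 and 0.00962% to 0.0627% in LLC. To compare genes, values were divided by the length of 1 reference transcript. On that scale, keratins of simple epithelia (KRT7, KRT8, KRT18, KRT19, KRT20 and KRT23) made up 97.9% to 99.0% of keratin in PC9 and 83.3% to 95.8% in MDA-MB-231. In PC9 the share was 97.9% to 98.0% in Par and 98.6% to 99.0% in the derivatives. In MDA-MB-231 it was 83.3% to 85.4% in Int and 89.5% to 95.8% in the other groups. HCC1954 differed more by group. In RNA from whole cultures, fewer cells that make a keratin and less of its RNA per cell cannot be told apart. Simple epithelial keratins held 69.3% to 70.6% of its keratin in Par, 37.2% to 44.1% in Int, 22.6% to 24.1% in Lep and 52.5% to 53.2% in BrM. The 22 keratins of stratified epithelia held 24.1% to 25.1% in Par, 47.2% to 56.0% in Int, 71.6% to 72.9% in Lep and 33.1% in both BrM libraries. These shares did not overlap between the 4 groups.

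**Figure D1:**
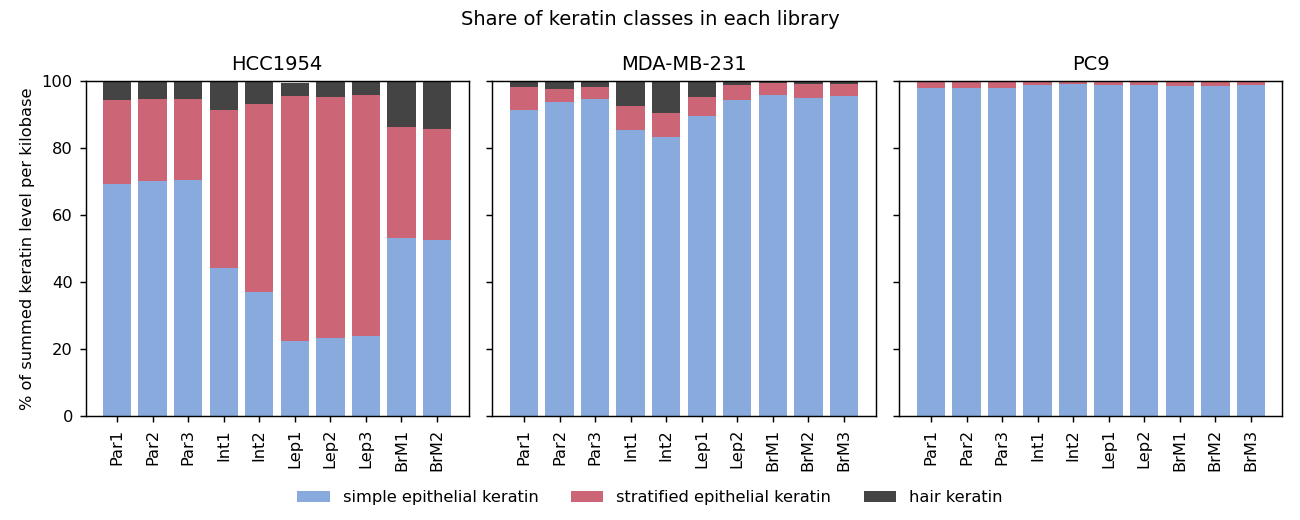
Share of 3 keratin classes in the summed keratin level per kilobase of transcript, in percent, for each library of the 3 human models (6 simple epithelial, 22 stratified epithelial and 17 hair keratins). In HCC1954 the stratified share runs from 24.1% in Par to 72.9% in Lep, whereas in PC9 the simple share is at least 97.9% in every library.

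The leading keratin of each type changed with the group in HCC1954. KRT7 was the most abundant type II keratin per length in Par, Int and BrM, at 17.9% to 22.9% of keratin, and KRT5 took its place in Lep at 16.0% to 17.3%. Among type I keratins, KRT18 or KRT19 led in Par at 14.0% to 14.4%, KRT15 in Int (24.1% to 27.7%) and BrM (25.4% to 25.5%), and KRT17 in Lep (23.5% to 25.2%). In PC9 and MDA-MB-231 KRT8 led type II in all 20 libraries, and KRT18 or KRT19 led type I. The ratio of summed type I to summed type II keratin was 1.25 to 1.30 in HCC1954 Lep, above the 0.893 to 0.899 of Par. By coding length in place of transcript length it was 1.23 to 1.28 against 0.919 to 0.930. BrM lay below Par by transcript length, at 0.774 to 0.788, but overlapped it by coding length, at 0.915 to 0.929. In PC9 the ratio stayed between 0.848 and 0.960, and in MDA-MB-231 it was 1.34 to 1.53 in Int and 1.86 to 2.29 in the other groups.

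The HCC1954 leptomeningeal derivative carried more basal keratin and less simple epithelial keratin than the parental line. Of 36 tested keratins, 13 rose and 8 fell in Lep against Par, beside a background of called genes of 26.8% of all genes, 13.0% higher and 13.8% lower. By class, 6 of 17 tested stratified epithelial keratins rose and 4 fell, and 6 of 11 tested hair keratins rose and 0 fell. Of 6 simple epithelial keratins, 1 rose and 4 fell. The median log2 fold change was 0.69 over the keratins and -0.02 over all genes. It was 1.49 over the 20 tested type I keratins, of which 11 rose and 4 fell, and -0.18 over the 16 of type II, of which 2 rose and 4 fell. Among the risers, KRT31, KRT33A, KRT33B, KRT34 and KRT37 were tested only because of their Lep libraries, so their rise was tied to the filter. They are included in the counts and medians over all keratins and over type I. KRT5, the type II keratin of basal cells, stood at 18688, 17236 and 17948 in Par and at 101674, 92187 and 97116 in Lep (log2 fold change 2.43 ± 0.23, adjusted p = 2.8e-07). All 3 Lep libraries lay far above all 3 Par libraries. KRT14, the type I partner of KRT5, went from 1052, 1048 and 1078 to 40529.6, 37881 and 38320.0 (log2 fold change 5.20 ± 0.41, adjusted p = 4.4e-08), the largest rise among keratins with a Par mean of at least 100. KRT17, a type I keratin of basal and activated cells, went from 15994, 14292 and 14857 to 88399, 86927 and 81507 (log2 fold change 2.51 ± 0.12, adjusted p = 2.7e-10) and became the most abundant type I keratin. The group means of the 3 genes in Lep were 97000 ± 4740, 38900 ± 1420 and 85600 ± 3630 (n = 3), so the replicates lay close together. Of the windows of 50 bases, 23.8% in the KRT14 transcript and 17.4% in that of KRT17 occur in another annotated transcript. Reads of these 2 genes may therefore be split between copies. KRT15, another basal type I keratin and high throughout, did not meet the fold threshold, at 70520.4, 68157 and 64305 in Par and 74980.3, 76668 and 80845 in Lep (log2 fold change 0.20 ± 0.04).

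For KRT5, KRT14 and KRT17 the intermediate derivative of HCC1954 lay between Par and Lep, but its 2 libraries differed. KRT14 was 1355 and 7755 in Int, KRT5 21138 and 55316 and KRT17 30231 and 49131, with replicate 2 the higher for each. Int against Par had 10 keratins higher and 4 lower (background 21.2% of all genes, 6.60% higher and 14.6% lower), and Lep against Int 14 higher and 7 lower (background 15.1% of all genes, 11.7% higher and 3.47% lower). Of the 10 higher in Int, the hair keratins KRT31, KRT33A, KRT33B, KRT34 and KRT37 rested on few reads. These hair keratins are also among the 14 higher in Lep against Int, and were tested only because of their Lep libraries. The Int and Par libraries overlapped for KRT33B and KRT34. KRT14 passed the test in Int against Par (log2 fold change 1.61 ± 0.46) but fell to 0.35 without Int replicate 2, and 8 keratins were then called in place of 14. KRT5 and KRT17 passed it in Lep against Int at 1.5 ± 0.25 and 1.15 ± 0.13, but came to 0.81 and 0.80 without Int replicate 1. KRT17 was also just under the fold threshold, at 0.99, after quantile normalization. KRT14 was called in Lep against Int with and without each Int library (3.58 ± 0.46 with both).

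In the HCC1954 brain metastatic derivative, the basal keratins KRT5, KRT14 and KRT17 fell against Par, while the 5 endothelial markers rose (median log2 fold change 2.69). Of the 36 tested keratins 2 rose and 14 fell in BrM against Par (background 23.6% of all genes, 9.63% higher and 14.0% lower), and 11 of the 17 tested stratified epithelial keratins were among those that fell. The other riser beside KRT23 was KRT33A, with 6 reads in BrM and 2 in Par (ratio 4.36, 95% counting interval 0.779 to 44.2), and edgeR and DESeq2 did not call it. KRT14 dropped to 77.7 and 77.2 in BrM (log2 fold change -3.76 ± 0.46, adjusted p = 4.9e-06), KRT5 to 4956 and 4882 (-1.87 ± 0.25) and KRT17 to 5443 and 5772 (-1.42 ± 0.13). Both BrM libraries were below every Par library for these 3 genes. Lep against BrM gave the highest count of called keratins in HCC1954, with 18 higher and 9 lower in Lep (background 17.1% of all genes, 10.5% higher and 6.54% lower). Among the 18, KRT31, KRT33A, KRT33B, KRT34, KRT37 and KRT74 were tested only because of their Lep libraries. The widest difference was KRT14 at 8.95 ± 0.46. KRT15 was an exception among basal keratins: at 77048 and 77039.9 in BrM it differed from Lep by 0.01 ± 0.04, and the libraries of the 2 groups overlapped.

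**Figure D2:**
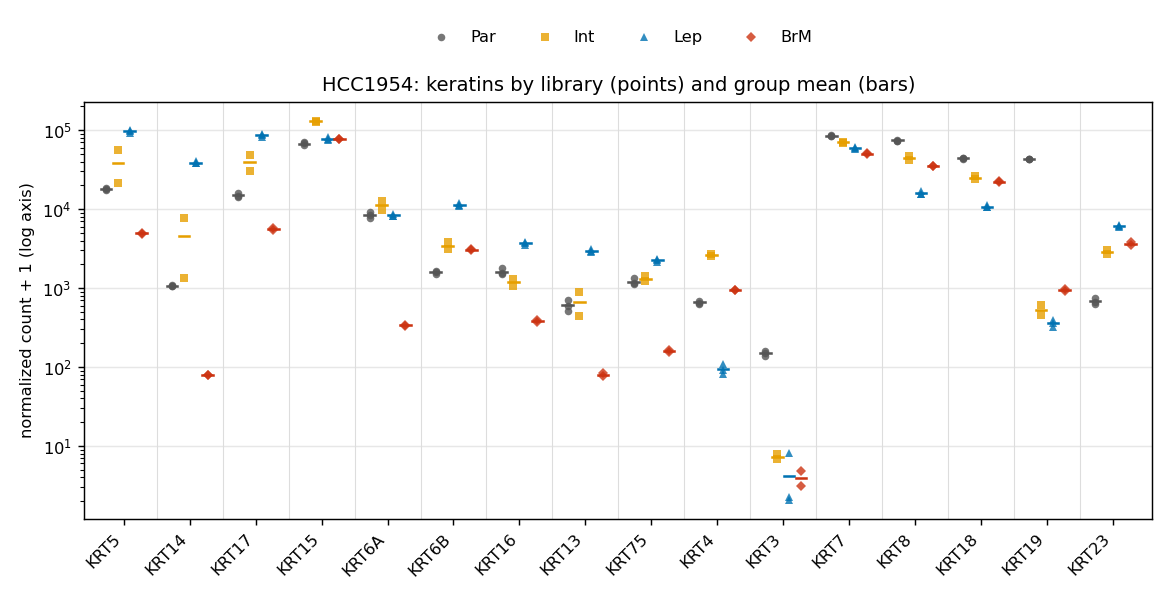
Normalized counts plus 1, on a log axis, of 16 keratins in the 10 HCC1954 libraries; points are libraries and short bars group means. KRT5, KRT14 and KRT17 are highest in Lep and lowest in BrM, KRT8 and KRT18 are highest in Par, and KRT19 is far higher in the 3 Par libraries than in all others.

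Among simple epithelial keratins of HCC1954, KRT8 and KRT18 moved in parallel, and both fell in Lep against Par. KRT8 was 75087, 73819 and 73859 in Par, 46702 and 41907 in Int, 15702, 15738 and 16729 in Lep and 35515 and 34639.7 in BrM. Its pair partner KRT18 was 44308, 43709.8 and 44077, 26057 and 24139, 10504, 10589.6 and 11129.8 and 21961 and 22618 in the same order. Both genes thus ran from Par down through Int and BrM to Lep, with no overlap between the groups. The log2 fold changes in Lep against Par were -2.21 ± 0.04 for KRT8 and -2.04 ± 0.03 for KRT18 (adjusted p = 2.1e-14 and 9.9e-15). In Int against Par neither met the fold threshold, at -0.75 and -0.81. In BrM against Par KRT8 was called, at -1.08, and KRT18 was not, at -0.98. Both genes have near-identical copies elsewhere: 39.7% of the windows of 50 bases in the KRT8 transcript and 35.1% in that of KRT18 occur in another annotated transcript, so reads may be split between copies. KRT7, the type II keratin of ducts and airways, was not called, at 86239, 84933 and 83435 in Par and 57767, 58582 and 60338 in Lep (log2 fold change -0.53 ± 0.03).

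KRT19, a type I keratin of simple epithelia and the smallest keratin, was nearly lost from every HCC1954 derivative. Par libraries had 43296, 43049 and 42800.4 normalized counts, Int 611 and 454, Lep 322, 356 and 396 and BrM 967 and 929.6. No derivative library came near the Par libraries. Log2 fold changes against Par were -6.35 ± 0.10 in Int, -6.91 ± 0.09 in Lep and -5.50 ± 0.10 in BrM, and the 3 comparisons share the same Par libraries. In the map order of chromosome 17, KRT19 lies next to KRT15 on one side and KRT9 on the other, and KRT15 kept values of 64305 or more in all 10 libraries. KRT3, the type II keratin of the cornea, went the same way from a low level: 136, 159 and 150.2 in Par against 5.79 and 6.82 in Int, 7.04, 1.08 and 1.25 in Lep and 3.88 and 2.09 in BrM.

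KRT23, a type I keratin found in simple epithelia of the gut, was the gene of the simple group that rose. It was 758, 674 and 634 in Par, 3065 and 2689.8 in Int, 6306, 6174 and 6018 in Lep and 3493 and 3811 in BrM. All 7 derivative libraries were above all 3 Par libraries, with log2 fold changes of 2.06 ± 0.07, 3.16 ± 0.06 and 2.41 ± 0.07.

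Keratins of activated and suprabasal cells in HCC1954 split between Lep and BrM. KRT16, the type I partner of KRT6, was 1778, 1489.5 and 1543 in Par, 1071 and 1303 in Int, 3809.9, 3749 and 3480.3 in Lep and 366 and 391 in BrM, called as higher in Lep (1.20 ± 0.08) and lower in BrM (-2.08 ± 0.08). KRT13, a type I keratin of the mouth and oesophagus, followed the same order, from 606 ± 101 in Par to 2950 ± 141 in Lep and 78.8 ± 5.19 in BrM, at 2.29 ± 0.19 and -2.92 ± 0.21 on the log2 scale. KRT75, a type II keratin of the hair follicle, was 1120 to 1356 in Par, 2126 to 2303 in Lep and 164 and 154 in BrM, and only the fall in BrM was called (-2.91 ± 0.08). These 3 genes had their highest libraries in Lep and their lowest in BrM. In the KRT16 transcript, 22.0% of the windows of 50 bases occur in another transcript.

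KRT6A and KRT6B, near-identical type II keratins of activated skin, were called in different comparisons against Par. KRT6A was 9164, 7699 and 8486 in Par and 8775, 8198 and 8259.5 in Lep, where the groups overlapped, and dropped to 343 and 331 in BrM (log2 fold change -4.64 ± 0.09, adjusted p = 1e-13). KRT6B rose from 1590 ± 83.2 in Par to 3450 ± 478 in Int and 11300 ± 437 in Lep (2.84 ± 0.06), and its rise in Int came to 0.97 without Int replicate 2. In BrM it was 3050 ± 76.1, above Par but short of the fold threshold. Shares of 39.1% of 50-base windows in KRT6A, 47.1% in KRT6B and 53.6% in KRT6C occur in another transcript, so the counts of each are uncertain. KRT4, the type II partner of KRT13, did not follow KRT13. It rose in Int to 2686 and 2515 from 634, 689.7 and 643 in Par (1.99 ± 0.10) and fell in Lep to 80.9, 108 and 90.0 (-2.81 ± 0.09).

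A run of acidic hair keratins was read in HCC1954 Lep. KRT33A, KRT33B, KRT34, KRT31 and KRT37 stand next to each other, in this order, among the 28 type I keratins of chromosome 17, and encode type I keratins of the hair shaft. In Par they had 1 to 6 reads each over the 3 libraries together. KRT34 was 4.39, 1.19 and 1.32 in Par, 4.21 and 7.34 in Int, 341, 346 and 355 in Lep and 2.59 and 2.09 in BrM (log2 fold change of Lep against Par 6.85 ± 0.34). KRT31 was 231, 270.3 and 251 in Lep and 4.74 and 16.8 in Int, with 1 read over the Par libraries and 0 in BrM. This gives a Lep to Par ratio of 632 with a 95% counting interval of 113 to 25000, and at least 71.5-fold more in Lep than in BrM, taking 3 reads per library as the limit that a 0 allows. KRT33B was 50.4, 43.2 and 45 in Lep (ratio to Par 58.0, interval 15.7 to 485), KRT33A 15.2, 13.0 and 11.3 (16.6, interval 4.25 to 142) and KRT37 31.7, 24.9 and 26.3 (log2 fold change 3.49 ± 0.38). In each of the 5 the lowest Lep library was above the highest library of the other groups. Without their Lep libraries none of the 5 would have been tested. All 5 were also called as higher in Int against Par, but from few reads. The log2 fold changes there were 2.98 for KRT31, 1.69 for KRT33B, 1.57 for KRT33A, 1.13 for KRT34 and 1.12 for KRT37. The Int to Par ratio was 5.29 for KRT33B (interval 1.24 to 47.4) and 4.96 for KRT33A (interval 1.15 to 44.7). The genes on either side of the run were also highest in Lep. KRT40, the hair keratin before it in map order and chosen after its values were seen, was 34.0, 24.9 and 32.5 in Lep and at most 17.7 in any other library (1.79 ± 0.35 against Par). KRT38, the next after it, was too low to be tested, at 5.86, 2.16 and 2.50 in Lep and at most 1.19 elsewhere. Further along, KRT32 overlapped between Lep and Par. KRT35 and KRT36, also too low to be tested, were 1.25 to 8.65 and 1.25 to 3.24 in Lep. Elsewhere they were at most 0.525 and 1.19. KRT33A and KRT33B share 27.5% and 27.7% of their 50-base windows with other transcripts, mainly within the run. Of the KRT33A windows, 22.6% occur in KRT33B, 6.9% in KRT34 and 5.7% in KRT31. Of the KRT33B windows, 18.0% occur in KRT33A, 8.3% in KRT31 and 7.3% in KRT34. KRT31 and KRT34 share 14.2% and 11.4%, and KRT37 13.3%, mainly with KRT38. Reads of 1 member may be counted for another, so the counts of each are uncertain and the 5 rises may not be separate. Intervals cover counting error only.

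The promoters of the 5 genes are shown because the genes are neighbours that were all highest in Lep. KRT35, KRT36, KRT38 and KRT40 of the same cluster, not shown here, were also highest there. Each line gives the 80 bases before the start of transcription in RefSeq (GRCh38.p14, chromosome 17, minus strand), written 5′ to 3′ with the TATA box TATAAA in capitals.
KRT33A (chr17:41350829-41350908): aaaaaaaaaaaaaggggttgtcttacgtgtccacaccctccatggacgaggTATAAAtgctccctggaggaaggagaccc
KRT33B (chr17:41369814-41369893): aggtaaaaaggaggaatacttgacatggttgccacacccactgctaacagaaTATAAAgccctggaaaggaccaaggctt
KRT34 (chr17:41382307-41382386): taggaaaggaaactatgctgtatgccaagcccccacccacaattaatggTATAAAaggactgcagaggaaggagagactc
KRT31 (chr17:41397609-41397688): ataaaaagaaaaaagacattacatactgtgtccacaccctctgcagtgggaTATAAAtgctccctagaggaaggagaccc
KRT37 (chr17:41424586-41424665): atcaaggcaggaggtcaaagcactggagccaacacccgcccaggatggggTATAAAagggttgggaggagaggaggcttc
Each of the 5 windows holds TATAAA once, on the strand of the gene, with its first base at -28 to -31 from the start. Of the 38 keratin promoters in the RefSeq table (of 55 genes), 17 held this word on either strand in the same 80 bases, 44.7%, against 4.35% of the 35116 promoters in the table. The GC box GGGCGG, searched on both strands over 250 bases, was in 10.5% of the keratin promoters and in 42.6% of all promoters. TGANTCA, the site of AP-1, searched in the same way, was in 0 of the 38 keratin windows of 250 bases and in 6.57% of all. A match is only a match of letters in this window.

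**Figure D3:**
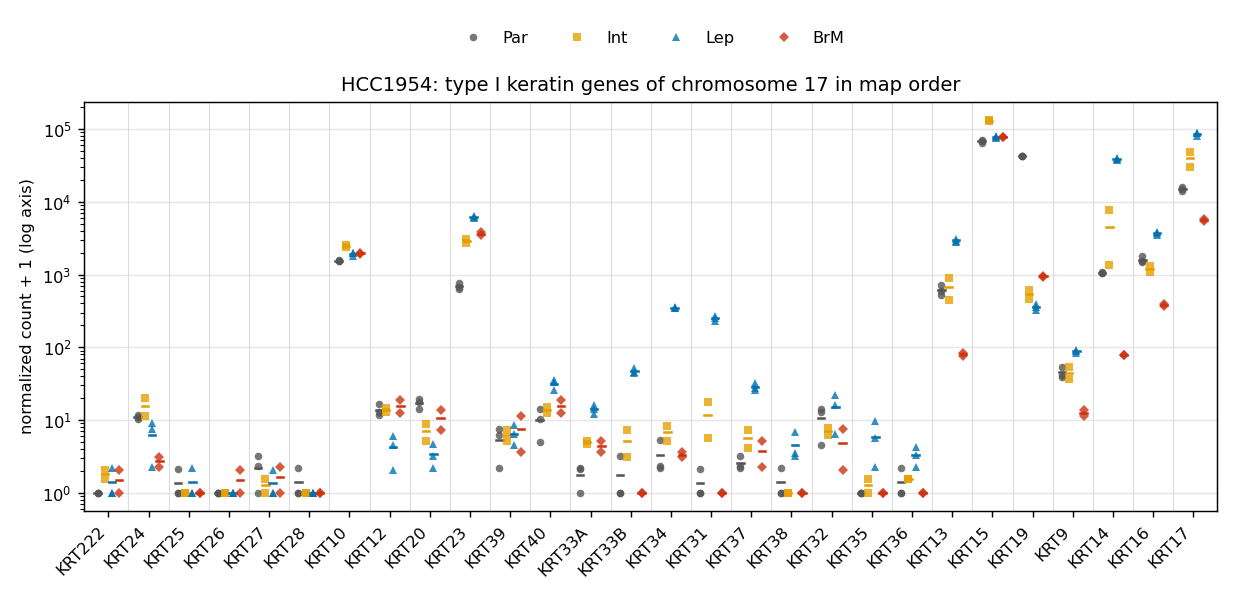
Normalized counts plus 1, on a log axis, of the 28 type I keratin genes of chromosome 17 in HCC1954, in map order from left to right; points are libraries and short bars group means. KRT33A, KRT33B, KRT34, KRT31 and KRT37 stand together with Lep above the other groups, and KRT14 and KRT17 at the right end are also highest in Lep.

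Among basic hair keratins, those with enough reads to be tested took another course. KRT81, a type II hair keratin that breast cancer lines also make, was 20573 to 22313 in Par, 15860 to 17414 in Lep and 32530.0 to 34385 in BrM. It was called only in Lep against BrM, at -1.0 ± 0.06, at the edge of the fold threshold. KRT81 and KRT86 share 44.6% and 39.2% of their 50-base windows with other transcripts.

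The anchors of keratin filaments and the regulators of basal cells in HCC1954 were read beside the keratins. Of 21 tested genes of desmosomes and hemidesmosomes, 5 rose and 1 fell in Lep against Par, and 1 rose and 5 fell in BrM against Par. These are 6 of 21 in each, where 26.8% and 23.6% of all genes were called, so the share called lay near the background. Their median log2 fold changes were 0.56 and -0.10, against -0.02 over all genes in both comparisons. COL17A1, the collagen that spans the hemidesmosome, was 502 ± 55.7 in Par, 7990 ± 510 in Lep and 165 ± 9.31 in BrM (log2 fold change in Lep 3.99 ± 0.30). DSG3, the desmosomal cadherin of basal cells, rose from 6.61 ± 2.45 to 962 ± 119, LAMA3, a chain of the laminin beneath hemidesmosomes, by 2.07 ± 0.06, and ITGA6, an integrin of hemidesmosomes, by 1.39 ± 0.05. Of 16 tested epithelial transcription factors, 3 rose and 0 fell in Lep against Par, and 2 rose and 0 fell in BrM against Par. Of all genes, 13.0% and 9.63% were called as higher in these comparisons. TP63, the transcription factor of basal epithelial cells, was 8210 ± 242 in Par, 28300 ± 1460 in Lep and 6520 ± 89.5 in BrM. It rose in Lep against Par (1.78 ± 0.07), and the 3 Lep libraries lay above all Par and BrM libraries.

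Other intermediate filament genes of HCC1954 had 1 riser and 4 that fell among 11 tested in Lep against Par, beside 26.8% of all genes called. VIM, the vimentin of mesenchymal cells, rose from 152 ± 11.4 to 1620 ± 194 (3.40 ± 0.20). INA, a neuronal filament protein, stood at 1979, 2054 and 2027 in Par and had no read in any Lep library. NEFH, a neurofilament subunit, went from 371 ± 11 to 2.67 ± 1.24. In BrM both were also near 0, at 3.88 and 1.04 for INA and 1.29 and 4.17 for NEFH.

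In PC9 the simple epithelial keratins that make up nearly all its keratin were higher in the intermediate and leptomeningeal derivatives, the groups in which its endothelial and choroid plexus markers also rose. Lep against Par had 10 keratins higher and 1 lower of 23 tested (background 15.1% of all genes, 6.65% higher and 8.49% lower), and Int against Par 8 higher and 1 lower (background 13.9% of all genes, 6.24% higher and 7.71% lower). Medians over the tested keratins were 0.94 and 0.59, against 0.02 over all genes in both. KRT8 was 91444, 97289 and 93035 in Par, 207988 and 215278 in Int, 190546 and 176744 in Lep and 142830.5, 146236 and 159109 in BrM. KRT18 was 53882, 55936 and 52571, 122953 and 123836, 123565 and 105988 and 84521, 89257 and 98653 in that order. Every derivative library was above every Par library for both partners. KRT7, a type II keratin, had means of 53600 ± 1950 in Par, 102000 ± 3460 in Int, 116000 ± 4790 in Lep and 97800 ± 7030 in BrM, and KRT19, a type I keratin, of 51900 ± 2890, 116000 ± 2520, 106000 ± 214 and 81500 ± 5420.

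Log2 fold changes of the 4 genes in Lep against Par were 0.97 ± 0.08 for KRT8, which missed the fold threshold, 1.08 ± 0.09 for KRT18, 1.11 ± 0.08 for KRT7 and 1.03 ± 0.08 for KRT19. In Int they were 1.17 ± 0.08, 1.19 ± 0.09, 0.92 ± 0.08 and 1.16 ± 0.08, and KRT7 missed it there. These calls lay close to the threshold. After quantile normalization, KRT18, KRT7 and KRT19 came to 0.84, 0.99 and 0.88 in Lep, and KRT8, KRT18 and KRT19 to 0.78, 0.97 and 0.93 in Int, so that 7 keratins in place of 11 were called in Lep. In Lep, KRT18 was 0.97 without Lep replicate 1, and KRT19 came to 1.00 and lost its call without Par replicate 1.

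**Figure D4:**
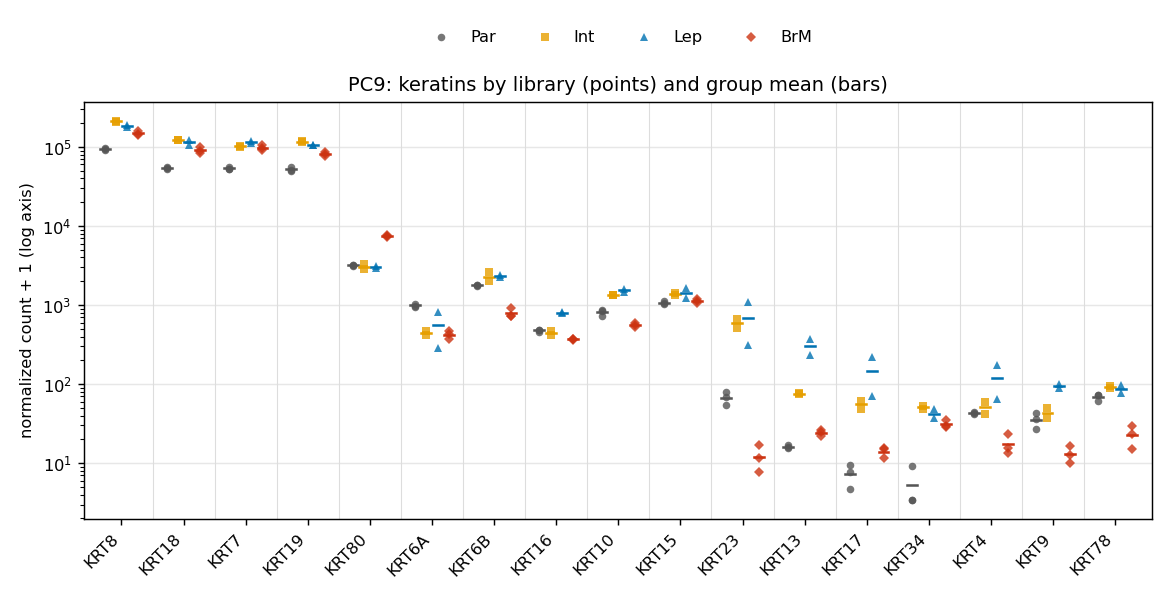
Normalized counts plus 1, on a log axis, of 17 keratins in the 10 PC9 libraries; points are libraries and short bars group means. KRT8, KRT18, KRT7 and KRT19 lie near or above 50000 everywhere and are lowest in Par, while KRT23, KRT13, KRT17 and KRT34 are far lower and rise in Int and Lep.

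A second set of PC9 keratins rose from low levels. KRT23 was 67.5, 78.2 and 52.7 in Par, 516 and 665 in Int, 309.5 and 1078 in Lep and 10.6, 15.8 and 6.74 in BrM. It rose in Int (3.15 ± 0.42) and Lep (3.13 ± 0.42) and fell in BrM (-2.53 ± 0.38), with Lep replicate 2 well above replicate 1. KRT13 was 15.9, 14.7 and 14.9 in Par, 73.6 and 75.4 in Int, 367 and 234 in Lep and 21.2, 23.6 and 25.0 in BrM. It was the 1 keratin called in Lep against Int, at 1.96 ± 0.24, beside a background of 0.608% of all genes, 0.228% higher and 0.380% lower. Its adjusted p was 0.12 when only those 2 groups were fitted. KRT17 was 8.58, 3.66 and 6.75, 61.0 and 47.5, 222 and 70.2 and 14.1, 10.5 and 14.5, again with unlike Lep libraries (log2 fold change 4.17 ± 0.44 in Lep). KRT34, the hair keratin that also rose in HCC1954 Lep, was 2.45, 2.44 and 8.10 in Par, 47.2 and 52.4 in Int, 46.9 and 35.9 in Lep and 28.2, 27.6 and 33.7 in BrM. Unlike the others it was called as higher in all 3 derivatives, at 3.41 ± 0.39, 3.14 ± 0.39 and 2.69 ± 0.35, which share the same Par libraries.

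Of the stratified epithelial keratins tested in PC9, 7 of 14 fell in BrM and 1 rose. Against Par, 2 of 23 tested keratins rose and 8 fell (background 7.72% of all genes, 4.62% higher and 3.10% lower). The summed level of the stratified list, not divided by length, was nevertheless higher in BrM, at 10600 to 11300, than in Par, at 8600 to 8710. Per kilobase of transcript the sums lay close, at 3300 to 3330 in Par and 3390 to 3640 in BrM. The share of this list in all keratin was 1.95% to 2.08% in Par and 1.27% to 1.35% in BrM. KRT6B was 1789, 1804 and 1742 in Par and 735, 721 and 912 in BrM (-1.18 ± 0.10). KRT6A was 1041, 953 and 982 in Par, 464 and 416 in Int, 825 and 284 in Lep and 366, 427 and 467 in BrM, and was called as lower in each derivative. The call in Lep rested on replicate 2, since without it the fold change was -0.26. KRT4 was 42.9, 41.5 and 40.5 in Par, 64.5 and 172 in Lep and 22.4, 14.4 and 12.5 in BrM, and its call in Lep (1.32 ± 0.36) came to 0.62 without Lep replicate 2. KRT78, a type II keratin of stratified epithelia, went from 67.5 ± 7.07 to 21.7 ± 7.4 (-1.64 ± 0.23), and KRT9, the keratin of palm and sole skin, from 34.3 ± 8.11 to 12.1 ± 3.13 (-1.43 ± 0.25). KRT80, a type II keratin of differentiating epithelia, was the member that rose, at 3082, 3169.6 and 3248 in Par and 7337, 7496 and 7671 in BrM (1.24 ± 0.06). Among those not called were KRT13 (0.59 ± 0.19), KRT17 (0.99 ± 0.39) and KRT15 (0.07 ± 0.09).

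Lep against BrM in PC9 had 12 keratins higher and 1 lower (background 18.6% of all genes, 7.83% higher and 10.8% lower). KRT23 differed most, at 5.66 ± 0.42, followed by KRT13 at 3.60 ± 0.22. KRT10, a type I keratin of differentiated skin, was 1611 and 1482 in Lep and 558, 523 and 591 in BrM (1.47 ± 0.09), and KRT16 805 and 796 and 359, 374 and 374 (1.12 ± 0.08). KRT80 was the gene lower in Lep, at -1.31 ± 0.07. Of the other filament genes, VIM was 50.3, 64.7 and 39.2 in Par, 54.3 and 23.4 in Lep and 1872, 1827 and 2189 in BrM (5.25 ± 0.29 in BrM against Par). Desmosome and hemidesmosome genes, of which 19 were tested, had 2 higher and 2 lower in Lep and 1 higher, ITGB4, in BrM, beside 15.1% and 7.72% of all genes called. TP63 in PC9 was low, at 37 ± 9.26 in Par and 82 ± 51 in Lep.

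In MDA-MB-231, keratin came mainly from KRT18, KRT8 and KRT19, and the spread between replicates was wide. Of 15 tested keratins limma called 0 in Lep against Par (background 0.0662% of all genes, 0.0199% higher and 0.0463% lower) and 0 in Lep against Int (background 0.159% of all genes, 0.0265% higher and 0.132% lower). It also called 0 in BrM against Par (background 0.450% of all genes, 0.344% higher and 0.106% lower) and 0 in Lep against BrM (background 0.827% of all genes, 0.344% higher and 0.483% lower). In that order, at an unadjusted p below 0.05 the counts were 2, 8, 2 and 2. edgeR on the recovered reads called 0 in each of the 4, and DESeq2 1, 3, 0 and 0. KRT18 was 15577, 38712 and 49938 in Par, 9714 and 8539.6 in Int, 15596 and 28526 in Lep and 34703, 40467 and 42531 in BrM. KRT8 was 13191, 30228 and 37901, 11984 and 11616, 16559 and 24331 and 30589.6, 33014 and 35332 in the same order. Par replicate 1 was the lowest Par library for both genes, and the Par range covered both Lep libraries.

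Int against Par in MDA-MB-231 had 1 keratin higher and 2 lower (background 6.94% of all genes, 4.33% higher and 2.61% lower). KRT80 rose from 2345, 1916 and 2471 to 4433 and 4675 (log2 fold change 1.03 ± 0.17, adjusted p = 0.013). KRT18 fell by 1.77 ± 0.44 on the log2 scale (adjusted p = 0.041), and KRT10, from 2183, 3309 and 3629 to 1707 and 1228, by 1.04 ± 0.24 (adjusted p = 0.034). The groups did not overlap for these 3 genes. The calls rested on which libraries were used. Without Par replicate 1, the library that stood apart, 7 keratins were called, adding KRT7, KRT8, KRT14 and KRT34, while without Par replicate 2 or either Int replicate the count was 0 and without Par replicate 3 it was 1, KRT80. In all, 14 of the 15 tested keratins had Int and Par libraries that did not overlap, as did 55.9% of all genes, and 11 of the 14 were not called. Among these were KRT7, at 487, 1625 and 1413 in Par and 3998 and 4193 in Int, and KRT81, at 703, 2458 and 2182 and 4277 and 5294. KRT17 was 38.1 and 310.1 in Lep, 6.05, 22.2 and 16.2 in Par and 2.62 and 3.47 in Int, and was the keratin that DESeq2 called in Lep against Par. KRT7, KRT81, KRT17 and KRT14 were chosen for mention after their values were seen.

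**Figure D5:**
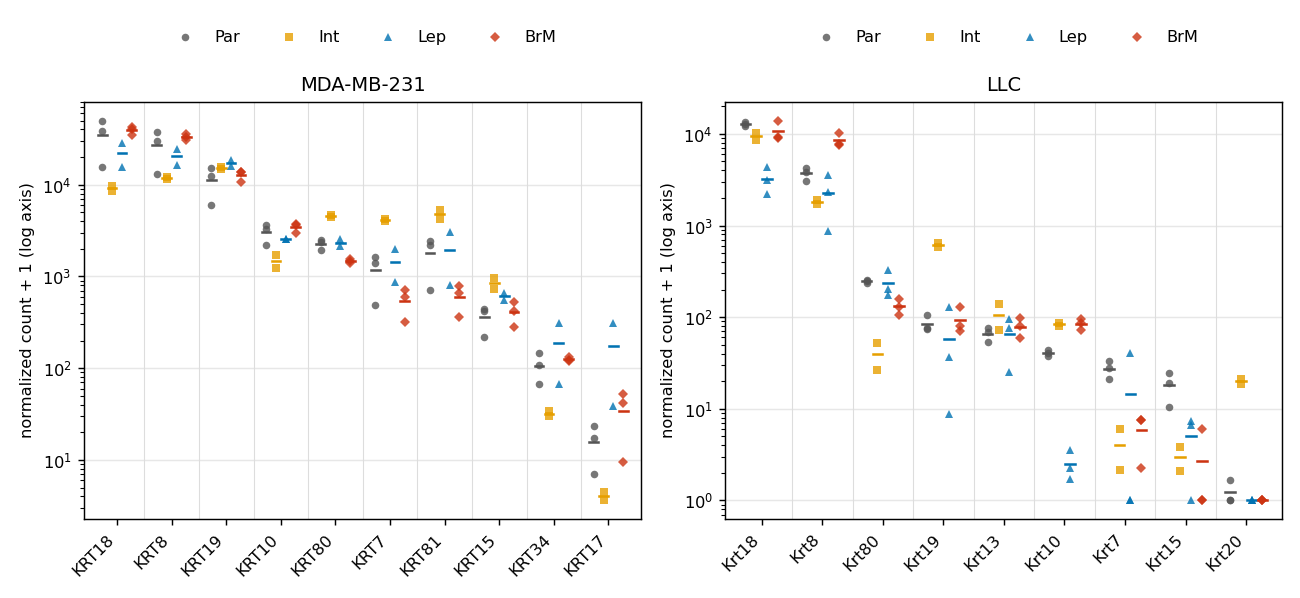
Normalized counts plus 1, on a log axis, of 10 keratins in MDA-MB-231 (left) and 9 in LLC (right), on separate scales; points are libraries and short bars group means. In MDA-MB-231 the Par and Lep points are widely spread, and in LLC Krt18 and Krt10 are lowest in Lep while Krt19 and Krt20 are highest in Int.

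LLC cells carried little keratin, nearly all of it Krt18 and Krt8. Lep against Par had 0 keratins higher and 2 lower of 9 tested (background 20.3% of all genes, 8.00% higher and 12.3% lower). Krt18 was 12977, 13368 and 12271 in Par, 10219.5 and 8542 in Int, 3099, 2199.6 and 4319 in Lep and 8925, 13967 and 9194 in BrM. It fell in Lep by 2.06 ± 0.22 on the log2 scale against Par (adjusted p = 2.3e-05), and all 3 Lep libraries were below every other library. Krt10 was 39.1, 43.2 and 36.9 in Par, 79.5 and 86.1 in Int, 2.56, 1.28 and 0.703 in Lep and 85.0, 93.9 and 70.8 in BrM, a fall to nearly no reads in Lep (-4.08 ± 0.32). Krt8, the partner of Krt18, was 4289.8, 3835 and 3091 in Par and 2317, 863 and 3543 in Lep, where the groups overlapped. Without Lep replicate 3, which was the highest Lep library for Krt18, Krt8 and Krt19, 6 keratins were called as lower in Lep, namely Krt7, Krt8, Krt10, Krt15, Krt18 and Krt19.

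The intermediate derivative of LLC had 3 keratins higher and 1 lower than Par (background 11.5% of all genes, 6.40% higher and 5.08% lower). Krt19 was 104, 75.7 and 72.5 in Par and 647 and 587 in Int (log2 fold change 2.88 ± 0.77, adjusted p = 0.018), and the call was lost without Par replicate 3 or either Int replicate (adjusted p 0.053, 0.10 and 0.093). Krt20, a type I keratin of the gut lining and urothelium, was 20.3 and 17.4 in Int, with 1 read over the 3 Par libraries and 0 in Lep. The Int to Par ratio was 70.9 with a 95% counting interval of 12.3 to 2840. Krt80 fell from 248, 251 and 233 to 25.8 and 51.2 (-2.71 ± 0.33). Krt10 was just called (log2 fold change 1.04 ± 0.35, adjusted p = 0.048) and was lost without any 1 of the 5 libraries.

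Lep against Int in LLC had 1 keratin higher, Krt80 at 2.59 ± 0.33, and 4 lower (background 22.5% of all genes, 8.47% higher and 14.0% lower), namely Krt10, Krt18, Krt19 and Krt20, the last at least 5.79-fold lower in Lep. BrM against Par had 2 higher and 1 lower (background 23.2% of all genes, 8.14% higher and 15.1% lower). Krt8 was 7519, 10289.9 and 7721 in BrM, above all Par libraries (log2 fold change 1.18 ± 0.37, adjusted p = 0.018), but without Par replicate 3 or BrM replicate 2 its adjusted p was 0.067 and Krt15 was the 1 keratin called. Krt15, a basal type I keratin, was 23.5, 17.9 and 9.51 in Par and 5.07, 0 and 0 in BrM (-3.22 ± 0.87). Krt10 rose in BrM by 1.04 ± 0.32. Lep against BrM had 0 higher and 3 lower (background 18.0% of all genes, 11.1% higher and 6.85% lower), with Krt10 at -5.12 ± 0.32, Krt8 at -2.13 ± 0.37 and Krt18 at -1.76 ± 0.22. Without Lep replicate 3, Krt7 and Krt19 were also called there.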

How the data were processed

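PolyA RNA of 41 cultures was sequenced in pairs of 50 bases, or 75 for MDA-MB-231, with a kit that does not mark strand, per the labels' protocols. The deposited values are a signal per gene, reads divided by 1 size factor per library. The submitters' processing notes name FastQC 0.11.3, HTSeq 0.5.4, DESeq2 and the builds hg19 and mm10. For the aligner, no name is given in these sources. All values came out as whole reads within 0.01. Each model was fitted on its own with limma 3.58.1 (R 4.3.3) on log2(value + 1), over genes with at least 10 in at least 2 libraries. Alternatives were a pseudocount of 5, no filter, 2 groups only, a replicate block, quantile normalization, edgeR 4.0.16, DESeq2 1.42.0 and leaving out each library. The fit was tested on simulated data.

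The members and gene lists were chosen with earlier results of these data known. Keratins named with every library's value were those called whose higher group averaged at least 100, at most 12 per model, plus the highest of each type. Genes of other lists were at most 4 per list and comparison. KRT8, KRT18, KRT23, KRT6B, KRT32, KRT33A, KRT33B, KRT35, KRT36, KRT37, KRT38, KRT40, KRT74, KRT81, KRT82, KRT83, KRT84, KRT85 and KRT86 in HCC1954, KRT7, KRT15, KRT9, KRT34, KRT78 and TP63 in PC9 and Krt7, Krt10, Krt15 and Krt20 in LLC were added after their values were seen. Same-numbered MDA-MB-231 BrM and Par libraries deviated together (correlations 0.5, 0.26 and 0.23), and a replicate block left their count of called keratins at 0.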

Additional observations from a re-analysis of the deposited data

Results flagged for a closer look

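Some keratins were called in opposite directions in different models, with every library of the first group on the stated side of every library of the second. The tables were normalized separately and the difference between models was not tested. Values are log2 fold changes.

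In Int against Par, KRT19 was -6.35 in HCC1954, 1.16 in PC9 and 2.88 in LLC. For KRT18 the values were -1.77 (MDA-MB-231) and 1.19 (PC9), and KRT10 was -1.04 in MDA-MB-231 and 1.04 in LLC. KRT80 was 1.03 in MDA-MB-231 and -2.71 in LLC, and KRT20 was -1.32 in HCC1954 and 4.06 in LLC, where the parental libraries held 1 read.

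In Lep against Par, KRT18 was -2.04 in HCC1954 and -2.06 in LLC but 1.08 in PC9. KRT19 was -6.91 in HCC1954 and 1.03 in PC9, and KRT4 was -2.81 in HCC1954 and 1.32 in PC9.

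In BrM against Par, KRT23 was 2.41 in HCC1954 and -2.53 in PC9, and KRT8 was -1.08 in HCC1954 and 1.18 in LLC. In Lep against BrM, KRT4 was -3.34 in HCC1954 and 2.65 in PC9, and KRT10 was 1.47 in PC9 and -5.12 in LLC.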

How the results depend on the processing

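Each count of called keratins was computed again under every alternative. No call of a named keratin changed direction under any alternative run. The number of named calls lost was 6 with 2 groups only, 7 with a pseudocount of 5, 2 with no filter, 9 with quantile normalization, 4 with edgeR, 8 with DESeq2, 4 with a replicate block and 41 over all fits when each library was left out in turn. Counts that moved by more than 1.5 times follow, and the cause was not tested. With a pseudocount of 5, HCC1954 Int against Par had 9 in place of 14 and PC9 Lep against Int 2 in place of 1. With 2 groups only, MDA-MB-231 Int against Par had 0 in place of 3, PC9 Lep against Int 0 and LLC Int against Par 7 in place of 4. Quantile normalization gave 7 in place of 11 in PC9 Lep against Par. edgeR gave 5 in MDA-MB-231 Int against Par and 2 in PC9 Lep against Int. DESeq2 gave 8 and 3 there, and 1 in MDA-MB-231 Lep against Par and 3 in Lep against Int, where limma called 0.

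Leaving out 1 library at a time gave 8 to 15 in HCC1954 Int against Par, 0 to 7 in MDA-MB-231 Int against Par, 0 to 3 in its Lep against Int (3 without Lep replicate 1) and 1 to 3 in PC9 Lep against Int (2 without Lep replicate 1, 3 without Lep replicate 2). For LLC it gave 2 to 6 in Lep against Par, 2 to 3 in Int against Par, 1 to 4 in BrM against Par and 3 to 5 in Lep against BrM. Where an arm was left with 1 library, that library was assumed to vary like the other groups. Beside MDA-MB-231 BrM and Par, replicate 1 of Lep and of Par in that model also deviated together (correlation 0.37), but replicate 2 did not (-0.02). In the remaining comparisons the correlation of same-numbered libraries was at most 0.14. A replicate block gave 22 in HCC1954 Lep against Par, 13 in Int against Par, 10 in PC9 Lep against Par, 3 in LLC Lep against Par and 1 in MDA-MB-231 Lep against Int, where limma without the block called 0.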
